A study of Mus musculus with 47 samples.

Results

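The Fc gamma receptors are cell-surface proteins through which leukocytes bind the constant part of immunoglobulin G (IgG) in immune complexes and on coated particles. In mice *Fcgr1*, *Fcgr3* and *Fcgr4* encode activating receptors, which signal through the tyrosine-based activation motif of the common gamma chain encoded by *Fcer1g*. *Fcgr2b* encodes the inhibitory receptor, whose own tyrosine-based motif recruits a lipid phosphatase that opposes the activating signal. *Fcgrt* encodes the heavy chain of the neonatal Fc receptor, an MHC class I-like protein that pairs with beta-2 microglobulin inside cells and rescues IgG and albumin from breakdown. Macrophages, monocytes and neutrophils carry the activating receptors, and the inhibitory receptor is found on the same cells and on B cells. These 6 genes were chosen by symbol, and all 6 were found, 1 entry each, among the 18138 entries of the deposited tables.

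Male C57BL/6J mice, 6 weeks of age, breathed either air or GMA-SS, the fume given off by gas metal arc welding with stainless steel wire, at 40 mg/m3 for 3 hr/d on 10 d. Tissues were taken 4 hr or 28 d after exposure ended. RNA of whole lung, of whole blood cells after removal of globin RNA, and of aorta was measured on Illumina MouseRef-8 beadchips, which carry gene-specific beads whose brightness follows the amount of RNA bound. The 47 arrays fall into 12 groups, GMA-SS and air at both times in each of 3 tissues, with 4 arrays per group except aorta 4 hr after GMA-SS, which had 3. All mice were of 1 inbred strain with no engineered allele, blood and aorta RNA came from the same mice and lung RNA from others, and every sample was a bulk tissue, in which fewer cells of a type and less RNA per cell cannot be told apart.

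Between 10239 and 10872 entries of a lung array were detected, between 8090 and 8406 of a blood array and between 8678 and 9646 of an aorta array, where detected, or above background, means a detection p under 0.05 against the negative control beads. Each beadchip held 1 tissue at 1 time, with air arrays in the first positions and GMA-SS arrays in the later ones, so exposure and place on the beadchip cannot be told apart. Tissue labels were checked against markers. The aorta array 28 d after GMA-SS numbered replicate 2 stood apart, with summed lung epithelial markers of 46059 signal units, against 363.4 to 457.7 in the other GMA-SS aortas and 451 to 850.4 in the air aortas of that time. *Irf7*, an interferon-induced transcription factor, was higher after GMA-SS in lung by 17.1-fold at 4 hr and 10.5-fold at 28 d. Median log2 differences over all genes lay between -0.04 and 0.00 in the 6 comparisons.

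*Fcgr2b*, *Fcgr4*, *Fcgr3* and *Fcer1g* lie near each other on chromosome 1 (GRCm38.p6), at chr1:170960558-170976071, chr1:171018926-171029761, chr1:171051169-171065915 and chr1:171229572-171234349. *Fcgr1* lies on chromosome 3 at chr3:96282909-96293969 and *Fcgrt* on chromosome 7 at chr7:45092993-45103822. The sequence around a RefSeq transcript start of each activating receptor gene and of the inhibitory one is shown as a description. It runs from 250 bases before to 50 bases after that start, read 5′ to 3′ on the strand of the gene. For *Fcgr3* the start used lies inside the gene span given above, not at its end. A second, overlapping *Fcgr3* window, chr1:171059345-171059644, held the same match and is not shown. The windows are chr3:96293920-96294219 (minus strand) for *Fcgr1*, chr1:171018676-171018975 (plus strand) for *Fcgr4*, chr1:171059354-171059653 (minus strand) for *Fcgr3* and chr1:170976022-170976321 (minus strand) for *Fcgr2b*. Capitals mark matches to 3 motifs, searched on both strands and chosen after the sequences had been seen.
Fcgr1: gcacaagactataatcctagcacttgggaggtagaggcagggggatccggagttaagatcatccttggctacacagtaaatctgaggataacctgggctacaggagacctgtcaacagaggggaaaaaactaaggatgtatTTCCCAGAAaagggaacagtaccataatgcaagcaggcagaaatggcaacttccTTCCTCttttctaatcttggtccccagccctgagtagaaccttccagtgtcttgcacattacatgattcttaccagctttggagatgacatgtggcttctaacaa
Fcgr4: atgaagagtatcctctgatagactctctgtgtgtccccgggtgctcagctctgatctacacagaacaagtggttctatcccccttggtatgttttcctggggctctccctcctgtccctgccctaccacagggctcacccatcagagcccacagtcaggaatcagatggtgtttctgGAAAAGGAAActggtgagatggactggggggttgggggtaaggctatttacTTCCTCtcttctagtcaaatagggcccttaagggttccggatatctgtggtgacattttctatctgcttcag
Fcgr3: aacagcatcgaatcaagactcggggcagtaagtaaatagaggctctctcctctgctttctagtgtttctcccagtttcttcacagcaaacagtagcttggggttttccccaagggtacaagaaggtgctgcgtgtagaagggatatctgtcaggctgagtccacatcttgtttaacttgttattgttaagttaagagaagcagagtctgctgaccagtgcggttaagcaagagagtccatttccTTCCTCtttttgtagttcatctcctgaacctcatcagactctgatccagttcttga
Fcgr2b: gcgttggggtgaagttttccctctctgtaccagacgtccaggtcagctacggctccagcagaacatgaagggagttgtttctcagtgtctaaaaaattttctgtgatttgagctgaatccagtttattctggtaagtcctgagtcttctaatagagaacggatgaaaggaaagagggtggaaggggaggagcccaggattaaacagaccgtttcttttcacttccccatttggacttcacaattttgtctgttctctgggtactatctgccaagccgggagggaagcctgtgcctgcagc

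The capitals in the *Fcgr1* window are a match to the interferon gamma activated site, TTCNNNGAA, and further on the PU.1 core GAGGAA read on the opposite strand. In the *Fcgr4* window they are a match to the core of the interferon-stimulated response element, GAAA and GAAA with any 2 bases between, followed by the PU.1 core on the opposite strand, and in the *Fcgr3* window the PU.1 core alone. PU.1 is a transcription factor of myeloid and B cells. None of the 3 motifs matched in the *Fcgr2b* window shown or in the windows of *Fcer1g* and *Fcgrt*. Of 32851 mouse promoter windows of the same length, 8.3% held TTCNNNGAA, 3.44% held the interferon-stimulated core and 28.3% held GAGGAA. Of the 6 members 1, 1 and 3 held them, and the PU.1 core is a common match. None of these counts was tested. A match is a description of the letters, and a missing match says only that these letters are absent from the window.

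In lung, the 3 activating receptors, their gamma chain and the inhibitory receptor were all higher after GMA-SS than after air at 4 hr and at 28 d, and *Fcgrt* was lower at both times. *Fcgr1* differed by 3.54-fold at 4 hr and 3.53-fold at 28 d, the largest of the 6, an order that was lost on the normalized values of the authors. The other 4 genes that rose differed by 1.47-fold to 1.63-fold at 4 hr and by 1.78-fold to 2.36-fold at 28 d. All 6 members passed the limma test at an adjusted p under 0.05 at both times. Of the 11115 genes tested in lung 9.57% were called higher and 9.88% lower at 4 hr, and 7.67% and 8.66% at 28 d. The median log2 difference of the 6 members was 0.61 at 4 hr and 1.00 at 28 d, against -0.04 at both times over all genes tested.

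**Figure D1:**
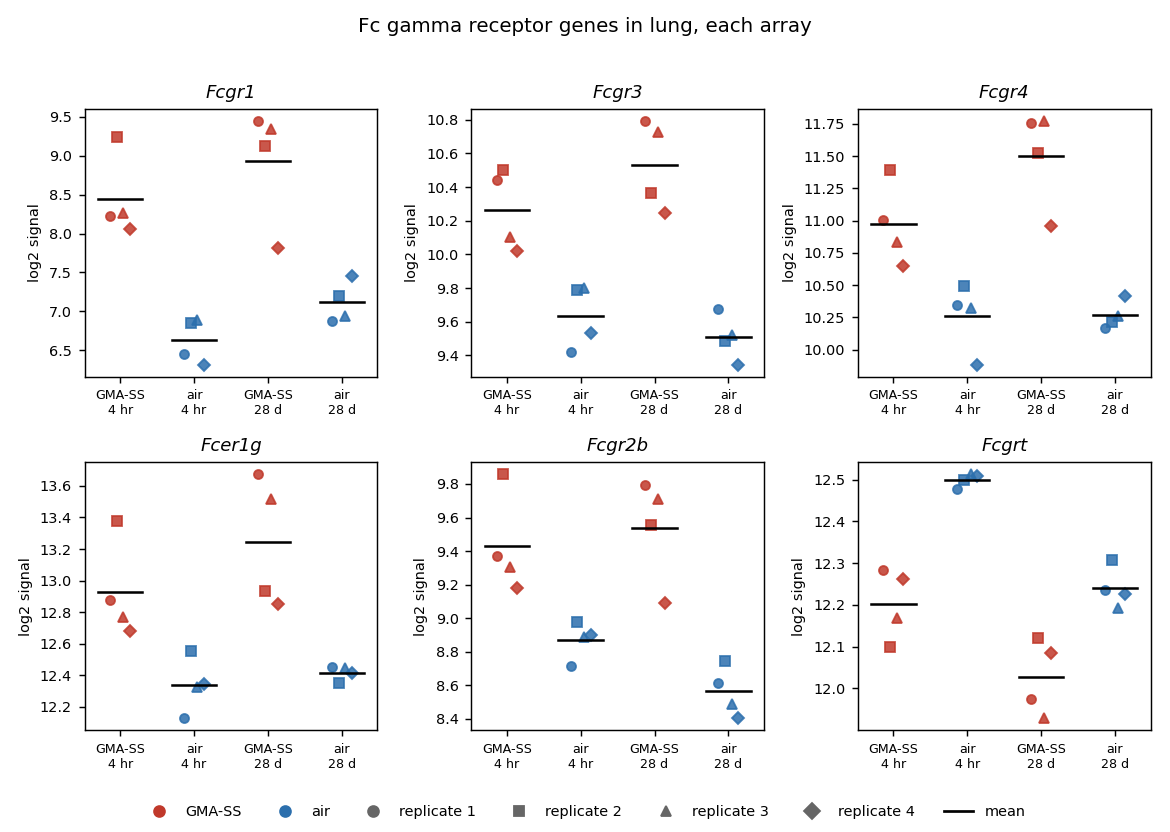
Lung log2 signal of the 6 members by array, GMA-SS left of air at 4 hr and at 28 d after exposure, with each point 1 array and each line the mean of 4 arrays. In every panel the GMA-SS and air points are separate: *Fcgr1*, *Fcgr3*, *Fcgr4*, *Fcer1g* and *Fcgr2b* lie higher after GMA-SS and *Fcgrt* lies lower.

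*Fcgr1* is the high-affinity receptor, able to hold single IgG molecules. At 4 hr its log2 signal was 8.23, 9.25, 8.26 and 8.06 in GMA-SS lungs, against 6.45, 6.85, 6.89 and 6.31 in air lungs. At 28 d it was 9.45, 9.13, 9.35 and 7.81 in GMA-SS lungs, against 6.87, 7.20, 6.94 and 7.45 in air lungs. The groups did not overlap at either time. Replicate 2 was the highest GMA-SS lung at 4 hr and replicate 4 the lowest at 28 d, where it lay closest to the highest air lung. The log2 difference was 1.83 (SE 0.31, 95% interval 1.18 to 2.47, limma adjusted p = 0.000481) at 4 hr and 1.82 (SE 0.31, adjusted p = 0.000719) at 28 d. Non-overlapping, higher GMA-SS groups were found for 12% of the genes tested at 4 hr and 6.93% at 28 d, and non-overlapping, lower groups for 14.5% and 8.8%.

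The size of the *Fcgr1* difference depended on the processing of the signal, the treatment of background included. Its deposited average signal in lung was 203.4 to 1074 units, and the negative controls of an array averaged 123.4 to 208.9 units. Without background correction its log2 difference was 1.00 at 4 hr and 1.15 at 28 d, and on the normalized values that the authors deposited it was 0.44 and 0.58. It passed the test under each of these. The authors' values may differ in more than background, and on them *Fcgr2b* at 28 d was smaller too, at 0.47 against 0.98. On the authors' values *Fcgr1* was no longer the member that differed most, with *Fcer1g* at 0.60 and *Fcgr4* at 0.55 at 4 hr, and *Fcgr4* at 1.04, *Fcer1g* at 0.86 and *Fcgr3* at 0.70 at 28 d.

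*Fcgr3* is a low-affinity activating receptor that binds IgG in complexes. Its log2 signal at 4 hr was 10.44, 10.50, 10.10 and 10.02 in GMA-SS lungs and 9.42, 9.79, 9.80 and 9.54 in air lungs. At 28 d it was 10.79, 10.37, 10.73 and 10.25 in GMA-SS lungs and 9.68, 9.49, 9.52 and 9.35 in air lungs. The groups were separate at both times. The log2 difference was 0.63 (SE 0.14, limma adjusted p = 0.00322) at 4 hr and 1.03 (SE 0.14, adjusted p = 7.01e-05) at 28 d.

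*Fcgr4* is an activating receptor for IgG2a and IgG2b of intermediate affinity. In GMA-SS lungs its log2 signal was 11.01, 11.39, 10.83 and 10.65 at 4 hr, against 10.35, 10.49, 10.33 and 9.88 in air lungs. At 28 d the GMA-SS lungs read 11.76, 11.53, 11.77 and 10.96 and the air lungs 10.17, 10.22, 10.26 and 10.42. No GMA-SS lung was as low as any air lung of its time, and replicate 4 was the lowest GMA-SS lung at both times. The log2 difference was 0.71 (SE 0.17, limma adjusted p = 0.00844) at 4 hr and 1.24 (SE 0.17, adjusted p = 0.000136) at 28 d.

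*Fcer1g*, the gamma chain shared by the activating receptors, had a log2 signal of 12.88, 13.38, 12.77 and 12.68 in GMA-SS lungs and 12.13, 12.55, 12.33 and 12.34 in air lungs at 4 hr. At 28 d it was 13.67, 12.93, 13.52 and 12.85 in GMA-SS lungs and 12.45, 12.35, 12.45 and 12.41 in air lungs. The groups did not overlap. The log2 difference was 0.59 (SE 0.17, limma adjusted p = 0.0192) at 4 hr and 0.83 (SE 0.17, adjusted p = 0.00291) at 28 d. The 4 hr call was lost without GMA-SS replicate 2 (adjusted p = 0.0764) and without air replicate 1 (adjusted p = 0.0654).

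*Fcgr2b*, the inhibitory receptor, read 9.37, 9.86, 9.31 and 9.18 in GMA-SS lungs and 8.71, 8.98, 8.89 and 8.90 in air lungs at 4 hr. At 28 d its log2 signal was 9.80, 9.56, 9.71 and 9.09 in GMA-SS lungs and 8.61, 8.74, 8.49 and 8.40 in air lungs. It moved in the same direction as the activating receptors, with no overlap between groups. The log2 difference was 0.56 (SE 0.15, limma adjusted p = 0.0133) at 4 hr and 0.98 (SE 0.15, adjusted p = 0.0003) at 28 d. Without GMA-SS replicate 2 the adjusted p at 4 hr was 0.0525. The *Fcgr2b* entry combines several probes, and the isoforms they bind could not be separated here.

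*Fcgrt* was the only member that was lower after GMA-SS in lung. Its log2 signal at 4 hr was 12.28, 12.10, 12.17 and 12.26 in GMA-SS lungs and 12.48, 12.50, 12.51 and 12.51 in air lungs. At 28 d it was 11.98, 12.12, 11.93 and 12.08 in GMA-SS lungs and 12.24, 12.31, 12.19 and 12.23 in air lungs. All 4 GMA-SS lungs lay below all 4 air lungs at each time. Its log2 difference was -0.30 (SE 0.05, limma adjusted p = 0.00103) at 4 hr and -0.21 (SE 0.05, adjusted p = 0.0129) at 28 d, or 1.23-fold and 1.16-fold lower. The 28 d call was lost without GMA-SS replicate 3 (adjusted p = 0.0575) and when only the groups compared were fitted (adjusted p = 0.0593). Its partner *B2m* and its cargo *Alb* did not pass the filter in lung or aorta, which does not show that either gene is silent there. In blood *B2m* was tested and differed by 0.14 log2 units at 4 hr and 0.13 at 28 d, neither of them called.

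The change between 4 hr and 28 d was tested as the difference of the GMA-SS effects. *Fcgr4* had the largest point estimate, 0.53 log2 units more at 28 d (95% interval 0.01 to 1.05, limma adjusted p = 0.668), followed by *Fcgr2b* at 0.41 (-0.03 to 0.86, adjusted p = 0.736) and *Fcgr3* at 0.40 (-0.01 to 0.80, adjusted p = 0.699). *Fcgr1* differed by -0.01 (-0.92 to 0.91), an interval wide enough to hold changes of either direction. No member passed the test of this difference, which 0.576% of the genes tested passed.

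Activating and inhibitory receptors were then set against each other within each array, by subtracting the log2 signal of *Fcgr2b* from that of each activating receptor and comparing these differences between GMA-SS and air. In this fit 2.08% of all genes were called higher at 4 hr and 1.06% at 28 d in lung, and 78.5% and 95% were called lower, since *Fcgr2b*, which is subtracted from each, was itself higher after GMA-SS. With so many genes called at 28 d, adjustment changed the *Fcgr1* p-value little there, from an unadjusted limma p of 0.000359. At 4 hr the unadjusted limma p of *Fcgr1* was 8.58e-07, and adjustment changed it more. *Fcgr1* gained on *Fcgr2b*, whereas no gain of *Fcgr3* or *Fcgr4* on it was called. The *Fcgr1* minus *Fcgr2b* difference at 4 hr was -1.14, -0.61, -1.05 and -1.11 in GMA-SS lungs and -2.26, -2.13, -1.99 and -2.58 in air lungs. These groups did not overlap, as for 1.84% of genes in the higher direction. The gain was 1.26 log2 units (SE 0.22, 95% interval 0.83 to 1.70, limma adjusted p = 5.04e-05). An exact permutation test over the arrays gave a two-sided p = 0.0286, the smallest it allows with 4 arrays against 4, and 0.171 after adjustment over the 18 such differences examined.

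At 28 d the *Fcgr1* minus *Fcgr2b* difference was -0.34, -0.43, -0.36 and -1.28 in GMA-SS lungs and -1.74, -1.54, -1.55 and -0.95 in air lungs. The groups overlapped, because GMA-SS replicate 4 fell below air replicate 4. The gain was 0.84 (SE 0.22, 95% interval 0.41 to 1.28, limma adjusted p = 0.00042, exact permutation p = 0.0571), and 1.07 without GMA-SS replicate 4. For *Fcgr3* the change relative to *Fcgr2b* was 0.07 (-0.29 to 0.43) at 4 hr and 0.05 (-0.31 to 0.41) at 28 d. For *Fcgr4* it was 0.15 (-0.23 to 0.52) and 0.26 (-0.11 to 0.64). These intervals leave room for gains of either receptor.

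Which activating receptor gained on *Fcgr2b* depended on the processing. With the authors' normalized values the change of *Fcgr1* relative to *Fcgr2b* was 0.15 (limma adjusted p = 0.14) at 4 hr and 0.11 (adjusted p = 0.237) at 28 d, and was not called. *Fcgr4* was called instead, with a gain of 0.26 (adjusted p = 0.0328) at 4 hr and 0.57 (adjusted p = 5.87e-05) at 28 d, and *Fcgr3* at 28 d with 0.24 (adjusted p = 0.0191). Without background correction *Fcgr1* kept its call, with gains of 0.56 (adjusted p = 0.00284) and 0.40 (adjusted p = 0.0123), and *Fcgr4* was called at 28 d with 0.39 (adjusted p = 0.0121).

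**Figure D2:**
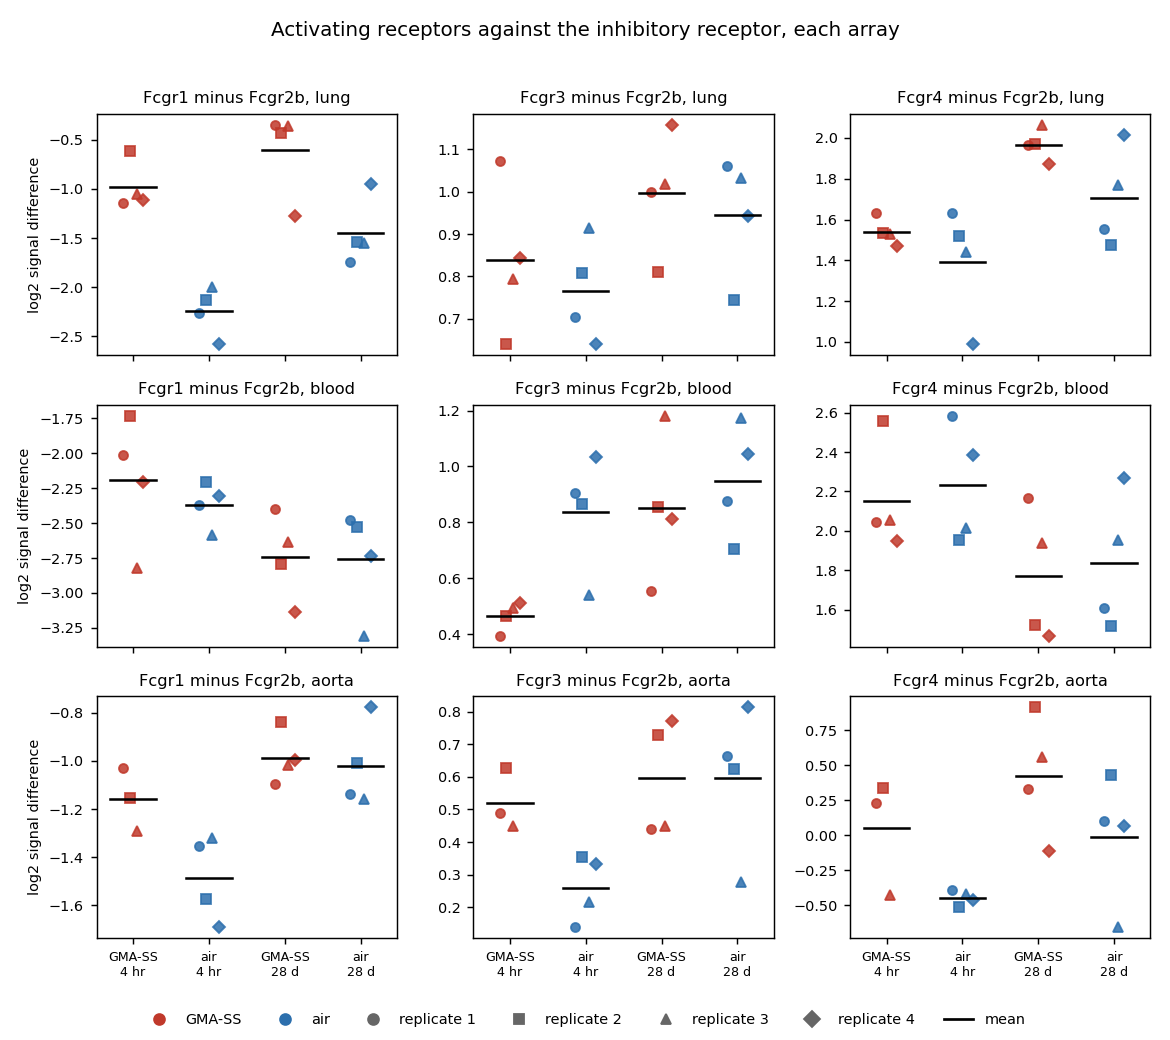
Difference in log2 signal between each activating receptor and *Fcgr2b* on the same array, GMA-SS left of air at each time and tissue, with each point 1 array and each line the group mean. In lung the *Fcgr1* difference averaged -0.98 after GMA-SS and -2.24 after air at 4 hr, while the *Fcgr3* and *Fcgr4* points of the GMA-SS and air lungs overlap.

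**Figure D3:**
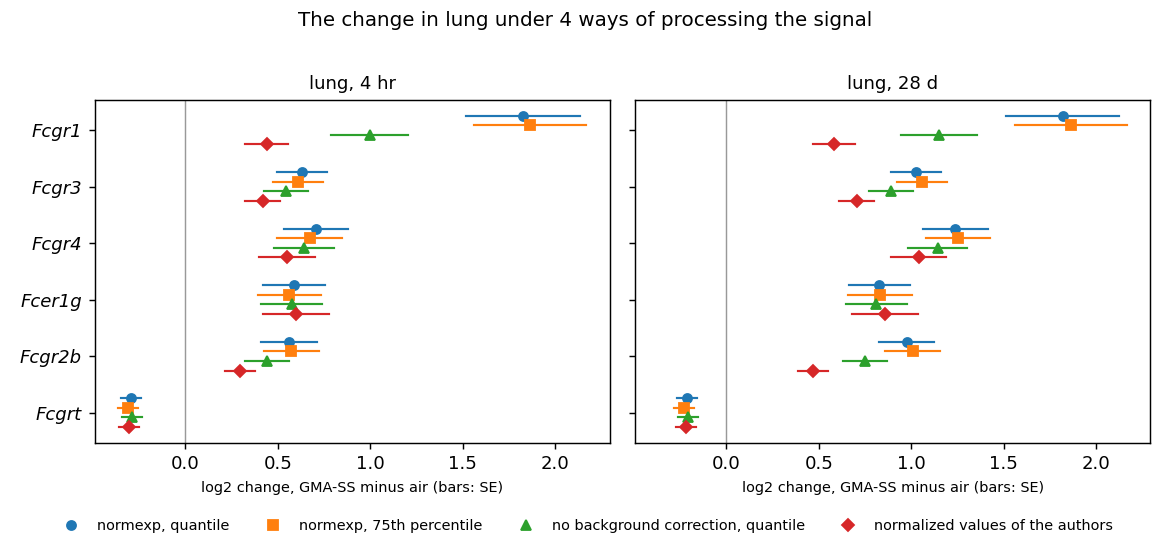
GMA-SS minus air log2 difference in lung of each member at 4 hr and 28 d under 4 ways of processing the signals, with error bars of 1 SE. *Fcgr1* moves most, with 1.83 at 4 hr as reported and 0.44 on the normalized values of the authors, and no member changes direction.

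In blood no member passed the test at 4 hr or 28 d, and all GMA-SS and air groups overlapped. Log2 differences at 4 hr lay between -0.27 for *Fcgr3* (SE 0.15, limma unadjusted p = 0.0871, adjusted p = 0.998) and 0.28 for *Fcgr1* (SE 0.25), and at 28 d between 0.00 and 0.12. Only 0.0108% of the 9246 genes tested passed at 4 hr, which is *Irf7*, and 0% at 28 d, while 5.05% and 7.85% had an unadjusted p under 0.05. *Fcer1g* had the narrowest interval, with a difference of 0.03 (95% interval -0.12 to 0.18) at 4 hr. It lay at percentiles 99.1 to 99.3 of the blood arrays, where quantile normalization sets values by rank and arrays can share a value. Its deposited average signal in blood ran from 8904 to 14790 units, so the normalized values may understate its spread. Its log2 signal there was 13.75, 13.59, 13.57 and 13.57 in GMA-SS blood and 13.53, 13.55, 13.53 and 13.74 in air blood, each group with 1 array above the other 3.

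Within blood arrays *Fcgr3* lay closer to *Fcgr2b* after GMA-SS at 4 hr, by a difference that did not pass the test over all genes. The *Fcgr3* minus *Fcgr2b* difference was 0.39, 0.46, 0.49 and 0.51 in GMA-SS blood and 0.91, 0.87, 0.54 and 1.03 in air blood, without overlap. Non-overlapping groups in this direction were found for 0.865% of genes. The change was -0.37 (SE 0.16, 95% interval -0.69 to -0.05, exact permutation p = 0.0286, adjusted 0.171, limma adjusted p = 0.943). Summed neutrophil markers were 14825 to 31423 signal units in GMA-SS blood and 19399 to 30198 in air blood at that time, and summed monocyte markers 955 to 1216 in GMA-SS blood and 1003 to 1163 in air blood, each with 0 markers called. The neutrophil markers had a median log2 difference of -0.35, with 2 of 9 above air, in the same direction as *Fcgr3*, and *S100a9* differed by -0.38 and *S100a8* by -0.29. Their part in the difference was not tested.

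In aorta no member passed the test either, nor did any of the 9838 genes tested (0% at both times, with 3.85% and 6.83% at an unadjusted p under 0.05). *Fcgr4* had the largest estimates, 0.48 (SE 0.28, limma unadjusted p = 0.106) at 4 hr and 0.39 (SE 0.26, unadjusted p = 0.149) at 28 d. At 4 hr it read 6.41, 6.70 and 5.64 in GMA-SS aortas, against 5.73, 5.85, 5.69 and 5.81 in air aortas. At 28 d it read 6.41, 6.62, 6.80 and 5.79 in GMA-SS aortas, against 6.35, 6.25, 5.33 and 6.11 in air aortas. The GMA-SS aortas spread more widely than the air aortas at 4 hr, and the groups overlapped at both times. Leaving out 1 array moved the *Fcgr4* difference to between 0.26 and 0.79 at 4 hr and to between 0.17 and 0.60 at 28 d, where it was 0.32 without the aorta that carried lung epithelial markers. On the authors' values it was 0.11 at 4 hr and 0.08 at 28 d.

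*Fcgr1* was at the edge of detection in aorta, above background on 4 of 15 arrays. At 4 hr it was above background on 1 of 3 GMA-SS aortas and on 0 of 4 air aortas, with means of 5.05 in GMA-SS aortas and 4.74 in air aortas. With 2 of the 3 GMA-SS arrays and all air arrays below background, no fold is given (limma unadjusted p = 0.0406, adjusted p = 1.00). The *Fcgr3* minus *Fcgr2b* difference at 4 hr was 0.49, 0.63 and 0.45 in GMA-SS aortas and 0.14, 0.35, 0.22 and 0.33 in air aortas. These groups did not overlap, as for 1.9% of all genes in this direction, and the change was 0.26 (95% interval -0.05 to 0.57, limma adjusted p = 1.00, exact permutation p = 0.0286, the smallest possible, adjusted 0.171).

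**Figure D4:**
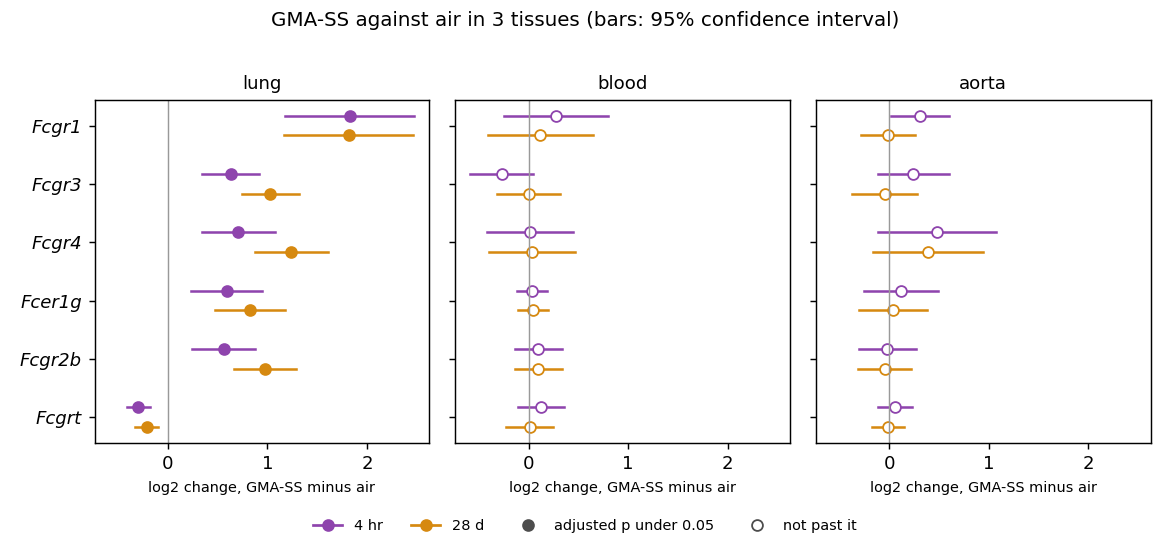
GMA-SS minus air log2 difference of the 6 members in lung, blood and aorta at 4 hr and at 28 d, with 95% intervals from limma and filled points for an adjusted p under 0.05. In lung all intervals exclude 0, above it for 5 members and below it for *Fcgrt*. In blood and aorta all include 0 except that of *Fcgr1* in aorta at 4 hr, which was not called. There *Fcgr1* was above background on 1 of 3 GMA-SS aortas and 0 of 4 air aortas, so no size is given.

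The members also differed between tissues, described here for air arrays by the percentile of each gene among all entries of its array. *Fcer1g* was at a median percentile of 99.2 in blood, 94.0 in lung and 85.5 in aorta, with no overlap between tissues. *Fcgr4* followed the same order, at 93.3 in blood, 78.1 in lung and 58.8 in aorta. *Fcgr3* was at 87.6 in blood, 70.9 in lung and 65.7 in aorta, and lung and aorta overlapped slightly. *Fcgr2b* was at 81.7 in blood, against 63.1 in lung and 61.7 in aorta, which overlapped. *Fcgr1* was at 60.2 in blood, 47.7 in lung and 41.5 in aorta, where lung and aorta overlapped too and most aorta arrays were below background. *Fcgrt* had the reverse order, at 97.4 in aorta, 94.1 in lung and 86.1 in blood, with no overlap. The tissues were run on different beadchips, so these orders were not tested. The aorta samples carried fat markers as well as smooth muscle markers. Their sums were 55736 to 63599 and 13684 to 15672 signal units in the air aortas at 28 d. The part of fat in the aorta levels was not tested.

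**Figure D5:**
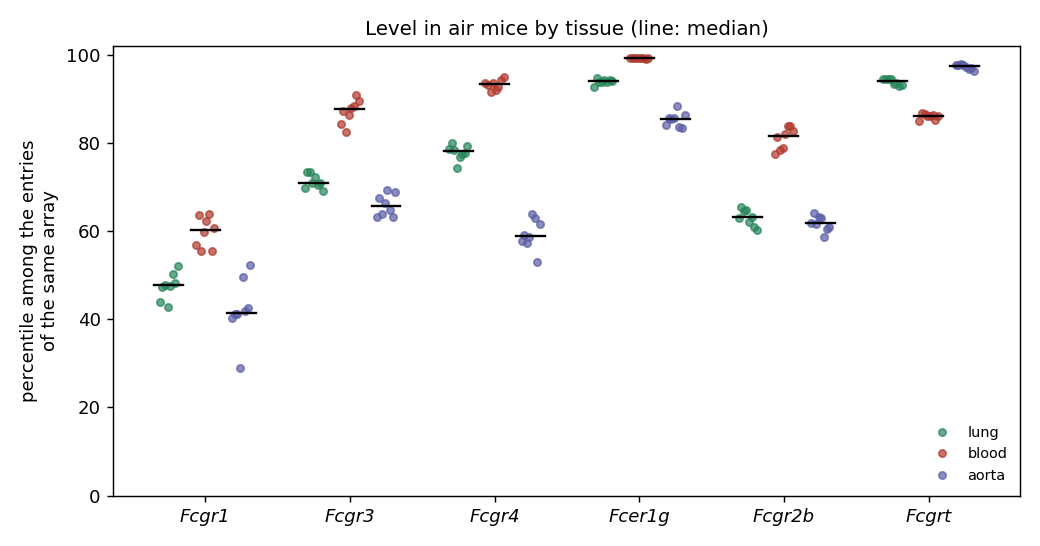
Percentile of each member among the entries of its array in lung, blood and aorta of the air mice, 1 point per array, with lines at the medians. *Fcer1g* is highest in blood (median 99.2 over air arrays) and *Fcgrt* highest in aorta (median 97.4 over air arrays).

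Other genes of Fc receptor biology were counted in lung from lists. Of 8 other Fc receptor genes tested, 3 rose at 4 hr and 4 at 28 d, with medians of 0.30 and 0.46 log2 units. *Pigr*, which carries polymeric IgA across epithelium, rose by 0.86 and 1.19, and *Trim21*, a cytosolic antibody receptor, by 0.46 and 0.36. *Fcer2a*, the low-affinity IgE receptor of B cells, differed by 0.36 without passing at 4 hr and rose by 1.13 at 28 d. Of 6 receptors that signal through the gamma chain, 3 rose at each time, among them the C-type lectins *Clec4d* (4.43-fold and 5.02-fold) and *Clec4n* (0.82 and 1.33 log2 units). The third, *Lilra5*, was above background on 1 of 4 GMA-SS lungs and 0 of 4 air lungs at 4 hr. At 28 d it was above background on 4 of 4 and 1 of 4, so it entered the test mainly through the GMA-SS arrays. Of 8 genes of the sister adaptor *Tyrobp* and its receptors, 3 and 4 rose, with *Trem2* at 1.69 and 2.21 and *Tyrobp* itself at 0.47 and 0.78. *Clec5a*, counted at both times, was above background on 4 of 4 GMA-SS lungs and 0 of 4 air lungs at each time. It too entered the test through the GMA-SS arrays.

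Downstream, 5 of 17 activating kinases and adaptors rose at 4 hr, and 10 rose and 1 fell at 28 d. *Vav1*, an exchange factor for Rac, rose by 0.60 and 0.87 log2 units, and *Nckap1l*, an actin regulator of leukocytes, by 0.41 and 0.70. Of 9 inhibitory phosphatases and adaptors that act below *Fcgr2b*, 0 passed at 4 hr and 4 rose at 28 d, among them *Ptpn6* (0.47), a tyrosine phosphatase, and *Dok3* (0.44), an adaptor. Of 7 other myeloid receptors with an inhibitory motif, 2 rose at 4 hr and 3 at 28 d, or 1 at each time under a stricter detection limit of 0.01. Among those called was *Lair1*, a collagen receptor, which was above background on 3 of 4 GMA-SS lungs and 0 of 4 air lungs at 4 hr and on 2 of 4 GMA-SS lungs and 0 of 4 air lungs at 28 d, so that it entered the test through the GMA-SS arrays. *Cd300lf*, called at 28 d, was above background there on 3 of 4 GMA-SS lungs and 0 of 4 air lungs, and also entered through the GMA-SS arrays. Of 5 phagocyte oxidase genes, 3 rose at 4 hr (1 with no detection filter) and 5 at 28 d, with *Cyba*, a membrane subunit, at 0.42 and 0.70. Complement genes tied to immune complexes rose in 5 of 7 cases at both times, and the 3 chains of C1q, which binds IgG in complexes, rose by 1.35 to 1.48 at 4 hr and 1.47 to 1.66 at 28 d. Of 4 genes of antibody chains and secretion, 1 rose at 4 hr (*Sdc1*, 0.24) and 0 at 28 d. Of 18 regulators known to act on these receptor genes, 5 and 7 rose, with *Csf2*, a myeloid growth factor, at 0.57 and 1.51. *Tnf*, counted at both times, was above background on 2 of 4 GMA-SS lungs at 4 hr and 4 of 4 at 28 d. With 0 of 4 air lungs above background at each time, it entered the test through the GMA-SS arrays. These list counts stand against 9.57% of all genes called higher at 4 hr and 7.67% at 28 d, and no gene of any list was called in blood or aorta.

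Summed markers of macrophages, monocytes and T cells were higher after GMA-SS in lung, though single macrophage and monocyte markers went either way. A sum follows its brightest genes. These were *Chil3* for macrophages (mean log2 signal 14.15 in GMA-SS lungs at 4 hr) and *Cd14* for monocytes (11.72). Summed macrophage markers were 30093 to 32019 signal units in GMA-SS lungs and 23335 to 24872 in air lungs at 4 hr, and 26958 to 32690 in GMA-SS lungs and 20159 to 23248 in air lungs at 28 d, with 4 and 7 of 10 markers called higher. At 4 hr 7 of the 10 lay above air, with a median log2 difference of 0.19, and at 28 d 9, with 0.71. The 2 brightest, *Chil3* (0.29 and 0.36 log2 units) and *Mrc1* (-0.03 and 0.06, not called), were named for their signal and do not stand for the list. *Siglecf* and *Cd163* did not pass the filter. Summed monocyte markers were 5428 to 7247 in GMA-SS lungs and 4149 to 4770 in air lungs at 4 hr, and 6682 to 8997 in GMA-SS lungs and 4525 to 4810 in air lungs at 28 d, with 2 and 3 of 6 called higher. Only 3 of the 6 lay above air at 4 hr, with a median log2 difference of 0.02, and 5 at 28 d, with 0.33. All 6 T cell markers tested were called higher at both times, with sums of 3616 to 6762 in GMA-SS lungs and 2411 to 2704 in air lungs at 4 hr, and of 3285 to 6459 in GMA-SS lungs and 2534 to 2966 in air lungs at 28 d. Neutrophil markers overlapped between the groups, with 1 higher and 2 lower of 7 at 4 hr and 2 higher and 1 lower at 28 d. B cell markers overlapped too, with 0 of 7 called at 4 hr and 1 at 28 d. Of 5 natural killer cell markers 0 and 1 were called higher, and of 5 dendritic cell markers 1 and 2 were called higher and 1 lower at each time. Of 3 mast cell and basophil markers 1 was called lower at 4 hr and 0 at 28 d. Of the eosinophil list only 2 genes were tested, as *Epx*, *Prg2*, *Ccr3* and *Siglecf* did not pass the filter, so the 2 need not follow eosinophils. The 2 went opposite ways at both times. *Ear6* was called higher, above background on 4 of 4 GMA-SS lungs and 0 of 4 air lungs. *Ear2* was called lower, by log2 differences of -1.07 and -0.57. Markers called only in the lower direction were those of platelets (4 of 6 at 4 hr and 2 at 28 d), erythroid cells (3 of 5 and 1), endothelium (2 of 8 and 3), smooth muscle (4 of 7 and 4), fat (3 of 5 and 1) and cardiac muscle (3 of 6 and 1), and of 9 lung epithelial markers 1 was called higher and 2 lower at each time. Their part in the receptor values was not tested.

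Across the 16 lung arrays the 5 genes that rose varied together. Within groups, after removal of group means, Pearson correlations among them lay between 0.63 and 0.91, the highest for *Fcgr1* with *Fcgr4*, and those of *Fcgrt* with them between -0.74 and -0.45. The genes most like each member in lung, by Pearson correlation over the 16 arrays, were *Ms4a6d* for *Fcgr1* (0.983), *Cd84* for *Fcgr3* (0.981), *Nckap1l* for *Fcgr4* (0.978), *Ccdc86* for *Fcer1g* (0.974), *Grn* for *Fcgr2b* (0.975) and *Zfyve21* for *Fcgrt* (0.960). In blood the most alike were *Clec10a* for *Fcgr3* (0.968) and *Cyb561a3* for *Fcgr2b* (0.957). These arrays share the exposure difference and the beadchips, and the correlations are descriptions.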

How the data were processed

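Per the labels each Illumina MouseRef-8 array read the RNA of 1 lung, blood or aorta sample. The authors exported from BeadStudio the average signal, an intensity that is not normalized, with a detection p-value and the number of beads as deposited beside it. The sample tables that the authors deposited hold normalized log2 values, made with lumi per the study's methods, and served as an alternative. Here the normexp method of limma (version 3.58.1, R 4.3.3) removed background, using each array's 798 negative control values, whose mean and SD followed from the steps in the detection p-values. Then 16 was added, log2 was taken and the arrays of a tissue were quantile-normalized. Folds are on this log2(signal + 16) scale, on which the added 16 makes changes of dim genes smaller. They are not lower bounds, since the *Fcgr1* difference in lung was smaller without background correction and on the authors' values. A gene entered the test of a tissue if 3 or more arrays of it had a detection p under 0.05 (11115 genes in lung, 9246 in blood, 9838 in aorta).

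In each tissue limma was fitted with 1 mean per group and a variance that follows the mean signal, and p-values were adjusted by Benjamini-Hochberg over all genes of the comparison. Differences from *Fcgr2b* were fitted for every gene in the same way, without the trend, and tested by exact permutation over the arrays as well. P-values measure the spread between the mice of these groups, and the number of arrays limits the precision. The scripts were tested on simulated data. Alternatives covered background correction, scaling, the detection filter, array weights, the groups fitted, the replicate number as a block and the omission of each array. Gene symbols were updated by Entrez number for 16590 entries, by RefSeq accession for 531 and by older symbol for 205, and 812 kept the symbol of the file. Promoter sequences are those of RefSeq (GRCm38.p6). 62 columns were not used.

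The members and gene lists were chosen with earlier results of these data known. Named genes are the 6 members, *Irf7*, up to 4 genes of each pathway list with the lowest p in lung, up to 2 genes of each marker list with the highest mean signal, markers under the filter, and for likeness the genes with the highest Pearson correlation.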

Additional observations from a re-analysis of the deposited data

Results flagged for a closer look

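Of 99 groups of 4 arrays examined for the members, 6 had an array apart from the others by Dixon's test at the 95% level. Chance sets an array apart in about 1 in 20 groups. *Fcgr1* read 9.25 in GMA-SS lung replicate 2 at 4 hr, against 8.06 to 8.26 in the other GMA-SS lungs. It read 4.59 in air aorta replicate 4 at 4 hr, below 4.77 to 4.79 in the others, all below background. *Fcer1g* read 13.75 in GMA-SS blood replicate 1 at 4 hr (others 13.57 to 13.59), 13.74 in air blood replicate 4 at 4 hr (others 13.53 to 13.55) and 8.69 in air aorta replicate 1 at 4 hr (others 8.92 to 8.94). The difference of *Fcgr1* from *Fcgr2b* was -1.28 in GMA-SS lung replicate 4 at 28 d, against -0.43 to -0.34 in the others. No member passed the limma test of a difference in GMA-SS effect between 4 hr and 28 d.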

How the results depend on the processing

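All 6 members were called in lung at 4 hr under each other setting tried, and 4 to 6 when 1 array was left out. At 28 d 5 were called in the fit on the groups compared, and 5 or 6 when 1 array was left out. In blood and aorta 0 members were called under each setting, with 0 to 11 of all genes called in blood and 0 to 2 in aorta. Of the activating receptors, 1 was called against *Fcgr2b* in lung at each time. At 28 d this count was 2 without background correction and 2 with the authors' values, and in lung it was 0 by adjusted exact permutation at both times. With a smallest p of 0.0286 and adjustment over 18 differences, a few differences could not pass that test, so this 0 decides little. In aorta at 4 hr it was 0, and 2 with array weights (*Fcgr4* 0.66, limma adjusted p = 0.00404, and *Fcgr1*, adjusted p = 0.00432). No size is given for *Fcgr1*, which was above background on 1 of 3 GMA-SS aortas and 0 of 4 air aortas. Over the settings tried, 0 to 448 of all genes were called against *Fcgr2b* in aorta at 4 hr. Leaving out 1 array kept the counts of activating receptors called at 1 and 1 in lung and 0 in blood and aorta. The cause was not tested. Of 1026 member values under alternatives, 204 belonged to called results, of which 0 changed direction and 5 lost the call, and 822 belonged to results not called, of which 96 changed direction and 0 became called. Genes called in lung at 28 d numbered 1815, and 1168 in the fit on the groups compared, and genes called in blood at 4 hr numbered 1 and 8.

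No paired mice link GMA-SS to air within a tissue, although blood and aorta arrays of 1 group and number are of 1 mouse. The deviations of same-numbered GMA-SS and air arrays correlated at -0.33 to 0.49. With the replicate number as a block, 6 and 6 members were called in lung and 0 in blood and aorta, *Fcgr1* in lung at 4 hr differed by 1.83 (SE 0.28, adjusted p = 0.000415), and genes called in lung numbered 2273 at 4 hr and 1918 at 28 d against 2162 and 1815. Signal over background limits *Fcgr1* in aorta, and the size of its change in lung depended on the processing.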
